A study of Mus musculus with 9 samples.

Results

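The genes that carry a cell through division were followed in AML246, a mouse acute myeloid leukaemia line of C57BL/6 origin, with p53 missing and an inducible hairpin against PU.1 (shPU.1). They are a list of 48 genes given by name: cyclins, cyclin-dependent kinases (CDKs), the E2F and RB families, and genes of DNA replication and of mitosis. All 48 were found among the 27179 gene entries of each library, and all 48 were among the 12004 that passed the filter on low counts. Of the 48, 32 were grouped by hand as genes of G1 or S phase (G1/S) and 16 as genes of G2 or mitosis (G2/M). The first group includes all of the E2F and RB families and Mybl2. Levels are CPM, a library-size scaled count, after correction by the trimmed mean of M values (TMM).

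Each of clones 1, 2 and 4, started from a single cell and kept in IL3, was sequenced 3 times, so that there were 9 libraries in 3 groups of 3. The untreated group was sorted as GFPhigh, the state that makes the hairpin. The dox group had 14 days of doxycycline and was sorted as GFPoff, the state without the hairpin. The wash group had the same 14 days and then 14 days without the drug, and was again sorted as GFPhigh. All 3 groups lack p53 and carry the hairpin construct. Effects of the drug, of the sort gate and of the hairpin cannot be told apart here, and the clones come from 1 line. In the fit on groups alone, p-values measure the spread between its clones. Where clone enters the fit, they measure the spread left after the terms for clone.

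The libraries held 7408118 to 9803258 counts. Spi1, which encodes PU.1, stood at 23.7 to 48.1 CPM in the untreated clones, 156 to 197 in doxycycline and 23.9 to 52.0 after washout, as the labels say. Ptprc, which encodes the leukocyte antigen CD45, lay between 0.489 and 2.02 CPM in the 6 GFPhigh libraries, against 28.0 to 45.1 in the GFPoff ones. Of the 12 myeloid identity genes that hold these, 5 rose in doxycycline (Ptprc, Kit, Itgam, Cd34 and Spi1) and 0 fell. Among all genes 6.57% rose and 4.35% fell. With clone as a block 6 rose (13.0% of all genes) and 3 fell (11.7%), the latter being the granule genes Mpo, Elane and Ctsg. Of 9 lymphoid markers, 2 passed the filter (Cd3g and Cd79b), and their summed level was 86.6 to 167 CPM untreated, 14.5 to 43.9 in doxycycline and 11.6 to 214 after washout. The sum hides that 1 of these 2 was higher and 1 lower in doxycycline in all 3 clones. Cd3e, Ms4a1, Cd8a and Ncr1 had 0 or 1 count in each library. Of 8 stromal and epithelial markers, Pecam1 and Epcam passed, with summed levels of 773 to 823, 815 to 955 and 793 to 813 CPM, nearly all of it Pecam1, while Col1a2, Dcn and Cdh5 had 0 counts throughout. Epcam, an epithelial adhesion gene, was at 2.02, 4.41 and 1.98 CPM untreated, 15.9, 72.8 and 31.1 in doxycycline, and 1.75, 4.29 and 2.81 after washout. It rose in doxycycline (adjusted p = 0.0076 by edgeR) and fell after washout (0.0080), and its part in the cell cycle values was not tested. A pair of clone 1 libraries stood apart. Untreated clone 1 had 22.0% of its counts on the entry 100861531, which has no symbol in the table used, against at most 1.64% elsewhere. Washed clone 1 had 3.28% of its counts on mitochondrial genes, against 12.7% to 22.0% in the other 5 GFPhigh libraries, and 1720 CPM of the myeloid granule gene Mpo, against 50.0 to 82.7 there.

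In the textbook account, D-type cyclins with CDK4 or CDK6, and then E-type cyclins with CDK2, phosphorylate the RB family of pocket proteins. E2F factors are then released from RB and switch on genes for licensing origins, making nucleotides and building the replication fork. Later, cyclins A and B with CDK1 drive mitosis, and many mitotic genes are read by MYB, FOXM1 and the MuvB core through a short element called the CHR, often with CCAAT boxes nearby. In the myeloid lineage, PU.1 is known both to drive differentiation and to restrain division in progenitors.

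Promoter letters of this kind were present in the list. Windows of 250 bases before the start were found for 38 of the 48 genes in RefSeq (GRCm38.p6); Ccna2, Gmnn, E2f4, Mcm4, Rb1, Aurkb, Cdc25c, Ccne2, Ccnd2 and Foxm1 had none in the table. An E2F motif (TTTCCCGC, TTTGGCGC, TTTCGCGC or TTTGCCGC, either strand) was present in 9 of 26 G1/S windows (34.6%) and in 1 of 12 G2/M windows, that of Cdk1, against 2.16% of the 27025 genes with a window. The CHR letters TTTGAA were in 41.7% of G2/M, 19.2% of G1/S and 18.3% of all windows. CCAAT was in 91.7% of G2/M, 61.5% of G1/S and 37.5% of all windows. The letters GAGGAAGT, a PU.1 motif, were in 0 of the 38 windows and in 2.79% of all windows. A match is a description of letters and not of binding. For E2f1 and Cdc25b the start used lies inside the gene, so a missing match does not describe the bases before their outer start.

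The last 150 bases before the start are printed for 4 of the genes, 5′ to 3′ on the gene's own strand. Cdk2 and Rbl1 carry an E2F match, Rbl2 (Rbl1's relative) has no match to the E2F, CHR or CCAAT letters in these 150 bases, though it is 1 of the G1/S genes with CHR letters in the longer window, and Cdk1 carries all 3 kinds. E2f1 and Cdc25b, which are called below together with Rbl2, are not printed. Their windows end at a start inside the gene. The E2f1 window is chr2:154569427-154569576, minus strand, in a gene that spans 154559400 to 154569892. The Cdc25b window is chr2:131186798-131186947, plus strand, in a gene that spans 131186436 to 131198511. In those 150 bases E2f1 has 0 matches and Cdc25b has 1, a CCAAT box. The bases before the outer start of these genes were not searched. Capitals mark matches to the E2F, CHR and CCAAT letters on either strand.

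Cdk2 (chr10:128705052-128705201, minus strand): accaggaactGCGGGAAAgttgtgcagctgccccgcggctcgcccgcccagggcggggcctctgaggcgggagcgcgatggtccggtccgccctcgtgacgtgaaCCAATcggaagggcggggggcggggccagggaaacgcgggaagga
Rbl1 (chr2:157204535-157204684, minus strand): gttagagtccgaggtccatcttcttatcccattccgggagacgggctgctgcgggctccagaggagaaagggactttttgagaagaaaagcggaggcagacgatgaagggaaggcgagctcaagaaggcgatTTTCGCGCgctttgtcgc
Rbl2 (chr8:91069907-91070056, plus strand): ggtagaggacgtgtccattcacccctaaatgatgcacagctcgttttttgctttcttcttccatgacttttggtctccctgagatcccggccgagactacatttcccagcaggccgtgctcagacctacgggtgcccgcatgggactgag
Cdk1 (chr10:69352913-69353062, minus strand): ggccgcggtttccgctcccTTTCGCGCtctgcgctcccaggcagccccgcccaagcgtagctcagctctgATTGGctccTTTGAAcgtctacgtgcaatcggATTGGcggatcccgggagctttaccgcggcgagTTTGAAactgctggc

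The heat map of all 48 genes by library shows 3 columns that are mostly red: doxycycline clone 1, washed clone 1 and doxycycline clone 4. The 3 columns of clone 2 are mostly pale or blue. Washed clone 1 was the highest of the 9 libraries for 27 of the 48 genes (24.1% of all genes), and doxycycline clone 1 for 15 (12.5%). Washed clone 2 was the lowest for 17 (13.6% of all genes) and doxycycline clone 2 for 14 (19.6%).

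**Figure D1:**
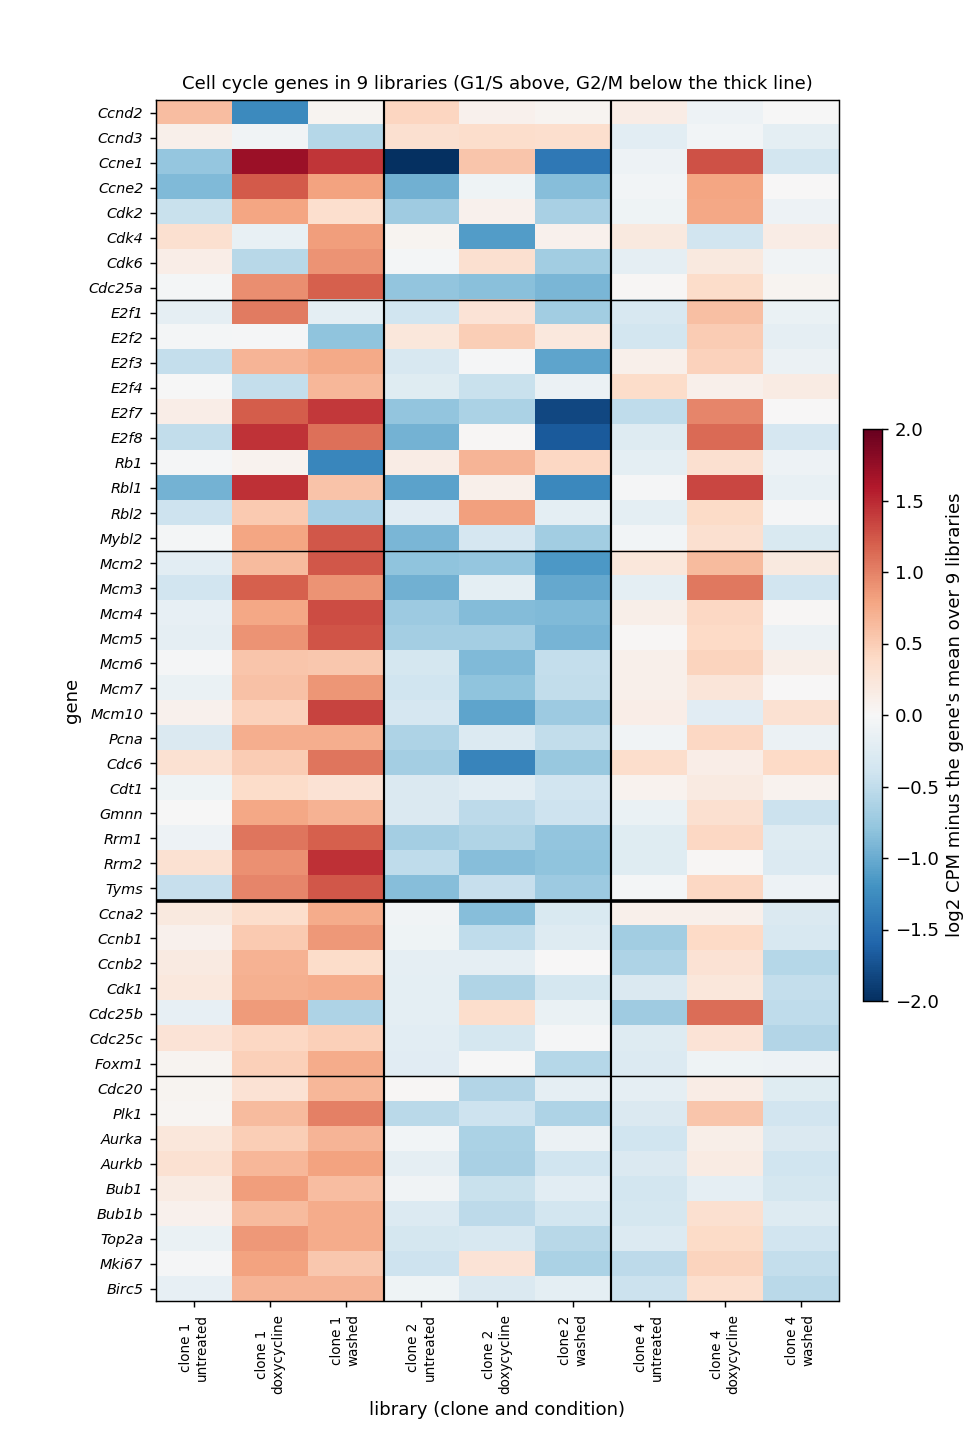
Level of each of the 48 genes (rows) in each of the 9 libraries (columns, by clone and condition), as log2 CPM minus the mean of that gene over the 9 libraries. Red is above and blue below the gene's mean, colours saturate at -2 and 2, thin lines part the roles and the thick line parts G1/S from G2/M genes. Washed clone 1 is highest for 27 of the 48 genes (24.1% of all genes), and the clone 2 columns are mostly blue for the replication genes.

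In doxycycline, 3 of the 48 genes rose against untreated and 0 fell: E2f1, Rbl2 and Cdc25b. The test was edgeR's quasi-likelihood test with Benjamini-Hochberg adjustment at 0.05 over 12004 genes, of which 6.57% rose and 4.35% fell. At an unadjusted p under 0.05 there were 12 of the 48, a share below the 27.2% of all genes. With clone as a block in the fit, 10 rose (13.0% of all genes) and 1 fell (11.7%). The 10 were Ccne1, Ccne2, Cdk2, E2f1, E2f8, Rbl1, Rbl2, Mcm3, Cdc25b and Mki67, and the 1 that fell was Cdk4. The median log2 fold change was 0.52 for the G1/S genes and 0.34 for the G2/M genes, against 0.00 for all genes. By sign alone, 24 of the 48 were higher in all 3 clones (32.1% of all genes) and 3 were lower in all 3 (31.8%). For 9 genes every doxycycline library lay above every untreated one (20.4%), and for 2, Ccnd2 and Cdk4, every one lay below (18.5%). The share of the 48 called without the block and the shares without overlap lay near or under those of all genes. The shares called higher with the block and higher in all 3 clones lay above them.

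The 3 calls without the block rested on all clones. Without clone 1, 1 gene was called higher (Mki67; 4.95% of all genes), without clone 2 it was 0 (0.900%) and without clone 4 it was 0 (0%). Without untreated clone 1 it was 0 (2.20%), and without washed clone 1 it was 9 (10.3%), the 3 among them. Over all alternatives the adjusted p ran from 0.0035 to 0.355 for E2f1, from 0.0023 to 0.248 for Rbl2 and from 0.0014 to 0.373 for Cdc25b (edgeR or DESeq2), with the highest without clone 4.

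Genes of neutrophil maturation moved with the same groups. Of the 10 on a list of them, 8 were tested and 6 rose in doxycycline (6.57% of all genes). The list's summed level was 23.3 to 104 CPM untreated, 603 to 2420 in doxycycline and 41.0 to 72.1 after washout. Of 12 glycolysis and hypoxia genes, 11 were lower in doxycycline in all 3 clones (31.8% of all genes). Of these 12, 0 passed the test, and 7 fell with clone as a block (11.7% of all genes). Their summed level went from 10958 to 2279 CPM in clone 1, from 13325 to 6630 in clone 2 and from 5386 to 2665 in clone 4. The part of these changes in the cell cycle values was not tested. In bulk RNA, fewer cells in cycle and less RNA per cell cannot be told apart.

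The D-type cyclins, which start the G1 programme, did not pass the test. Ccnd2 stood at 249, 221 and 180 CPM in clones 1, 2 and 4 when untreated, at 67.8, 174 and 152 in doxycycline, and at 169, 170 and 162 after washout. Every doxycycline value lay below every untreated one, with by far the deepest drop in clone 1 (log2 fold change -0.72, SE 0.31, adjusted p = 0.17 by edgeR). Ccnd3, the second most abundant of the 48 per length, was nearly level, at 429 ± 76.6 CPM untreated (SD, n = 3), 430 ± 75.6 in doxycycline and 380 ± 122 after washout.

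The E-type cyclins, which activate CDK2 at the G1/S border, were low and higher in doxycycline in each clone. Ccne1 was counted 22, 11 and 52 times in untreated clones 1, 2 and 4 and 256, 77 and 173 times in doxycycline. In CPM it stood at 4.04, 1.39 and 6.42 untreated, 22.6, 10.2 and 16.8 in doxycycline, and 18.7, 2.57 and 5.38 after washout. The doxycycline values did not overlap the untreated ones, yet the rise (log2 2.06, SE 0.75) gave an adjusted p of 0.12 by edgeR, or 0.015 with clone as a block. Ccne2 stood at 4.95, 4.66 and 8.77 CPM untreated and 21.3, 8.60 and 15.8 in doxycycline (log2 1.31, SE 0.49, adjusted p = 0.12 by edgeR, 0.031 with the block). Here the groups overlapped, since doxycycline clone 2 lay just below untreated clone 4. Its exons overlap those of Ints8 on the other strand, and the strand setting of the counting is not given in the sources used here. Ints8 was well above Ccne2, at 46.4, 41.2 and 51.1 CPM untreated and 62.7, 54.4 and 62.2 in doxycycline (adjusted p = 0.33 by edgeR). The part of shared reads in the Ccne2 values was not tested.

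Among the G1 kinases, Cdk2 was higher and Cdk4 lower in doxycycline in all 3 clones. Cdk2 stood at 89.7, 74.6 and 115 CPM untreated, 210, 130 and 208 in doxycycline, and 153, 78.1 and 113 after washout. Its doxycycline libraries did not overlap the untreated ones (log2 0.97, SE 0.29, adjusted p = 0.065 by edgeR, 0.0073 with the block), and washed clone 1 had the highest level of the 6 GFPhigh libraries. Cdk4, the most abundant of the 48 per length at a mean RPKM of 203 (CPM per kilobase of gene length), stood at 323, 268 and 294 CPM untreated, 234, 119 and 199 in doxycycline, and 459, 274 and 287 after washout. Every doxycycline library lay below the other 6. The difference from untreated was -0.68 in log2 (SE 0.29, adjusted p = 0.16 by edgeR, 0.026 with the block). Washed against doxycycline it was 0.89 (SE 0.29, adjusted p = 0.089 by edgeR, 0.013 with the block). Pmel shares exon sequence with Cdk2 on the other strand and Tspan31 with Cdk4. Their own differences in doxycycline had adjusted p of 0.35 and 0.84 by edgeR. Of the 48 genes, 18 have an exon overlapped by another gene. Among them are Mcm7 with Cops6, at 131, 131 and 138 CPM untreated, and Cdc20 with Elovl1, at 82.4, 63.0 and 90.7. The part of shared reads in the values of these genes was not tested.

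The ratio of these kinases moved the same way in the 3 clones. Per length, Cdk2 was 0.154, 0.154 and 0.216 times Cdk4 in untreated clones 1, 2 and 4, 0.498, 0.603 and 0.579 times in doxycycline, and 0.185, 0.158 and 0.219 times after washout. The ratio in washed clone 1 was close to that in the other GFPhigh libraries, although both its kinases were at their GFPhigh maximum. This ratio was chosen after the values were seen and carries no test. A ratio shows unequal change and not which kinase moved.

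**Figure D2:**
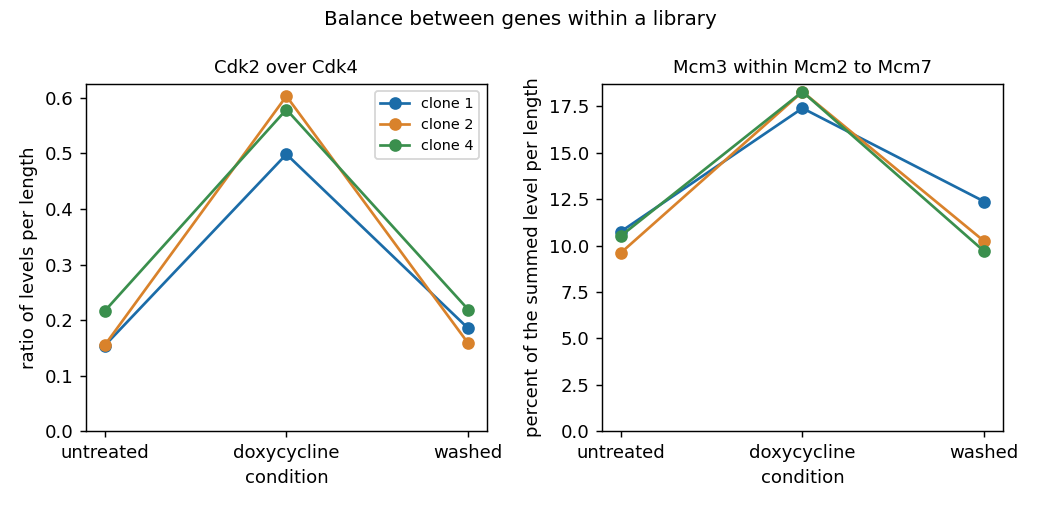
Left, the level of Cdk2 divided by that of Cdk4, both per length, and right, the share of Mcm3 in the summed level per length of Mcm2 to Mcm7, in percent. Points are single libraries, lines join the 3 conditions of a clone, and both axes start at 0. In both panels the 3 doxycycline libraries lie above the 6 GFPhigh libraries, with the ratio at 0.498 to 0.603 against 0.154 to 0.219.

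Cdk6, the other partner of the D cyclins, and Cdc25a, the phosphatase that activates CDK2, had no common direction. Cdk6 went from 49.0 to 30.4 CPM with doxycycline in clone 1, from 43.7 to 56.1 in clone 2 and from 39.8 to 51.1 in clone 4, and washed clone 1 had 83.2 (doxycycline against untreated adjusted p = 0.945 by edgeR). Cdc25a stood at 63.3, 37.8 and 66.5 CPM untreated, 124, 36.4 and 84.2 in doxycycline, and 150, 34.7 and 67.7 after washout. Clone 2 was the lowest clone in each group, and the groups overlapped (adjusted p = 0.57 by edgeR).

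Most of the E2F, RB and MYB factors were higher in doxycycline in every clone. Of the 10, 9 had that direction (32.1% of all genes) and 2 rose (6.57%). The median log2 ratio of the 10 was 1.00 in clone 1, 0.54 in clone 2 and 0.72 in clone 4. The exception was E2f4, a repressor partner of the pocket proteins, at 64.8, 55.5 and 84.7 CPM untreated and 47.0, 47.9 and 69.9 in doxycycline (adjusted p = 0.48 by edgeR). E2f1 (Entrez gene 13555, chromosome 2, 154559400 to 154569892 on GRCm38), the classical activator, stood at 18.3, 15.9 and 16.7 CPM in clones 1, 2 and 4 when untreated, 42.7, 25.3 and 31.8 in doxycycline, and 18.2, 12.9 and 19.1 after washout. The 3 doxycycline libraries were the highest of the 9. It rose by 0.97 in log2 (SE 0.25, adjusted p = 0.038 by edgeR) and fell again after washout by 0.99 (SE 0.25, adjusted p = 0.037).

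Rbl2 (Entrez gene 19651, chromosome 8, 91070057 to 91123844) encodes p130, the pocket protein known for holding E2F targets silent in resting cells. It stood at 50.3, 57.2 and 58.6 CPM untreated, 96.3, 118 and 87.7 in doxycycline, and 42.2, 58.7 and 66.1 after washout, with no overlap between doxycycline and the rest. The rise was 0.86 in log2 (SE 0.20, adjusted p = 0.028 by edgeR) and the later fall 0.86 (SE 0.20, adjusted p = 0.031). Aktip shares exon sequence on the other strand, and was at 9.57 to 10.6 CPM untreated and 13.9 to 19.2 in doxycycline (adjusted p = 0.11 by edgeR), well below Rbl2. Rbl1, which encodes the relative p107, stood at 13.6, 12.5 and 25.8 CPM untreated, 72.0, 28.0 and 66.5 in doxycycline, and 39.1, 10.8 and 23.7 after washout. It was higher in doxycycline without overlap (log2 1.68, SE 0.52, adjusted p = 0.070 by edgeR, 0.0098 with the block). Rb1, the founding member, had smaller differences, from 84.6 to 107 CPM untreated, 102 to 155 in doxycycline and 39.3 to 129 after washout, the low value being washed clone 1.

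The remaining E2F members did not pass the test without the block. E2f8, a repressor that closes the S phase programme, stood at 35.2, 25.7 and 41.8 CPM untreated, 136, 50.4 and 109 in doxycycline, and 106, 15.6 and 39.3 after washout (log2 1.53, SE 0.62, adjusted p = 0.15 by edgeR, 0.030 with the block). E2f7, its relative, was at 8.99, 4.79 and 5.81 CPM untreated, 19.1, 5.29 and 16.3 in doxycycline, and 21.9, 2.33 and 8.32 after washout, so that clone 2 hardly moved in doxycycline. E2f2 ranged from 83.1 to 125 CPM untreated, 105 to 152 in doxycycline and 61.2 to 125 after washout, and E2f3 from 8.99 to 13.5, 12.3 to 20.0 and 6.00 to 21.3. Mybl2, a MYB factor of the mitotic programme, was at 11.7, 6.42 and 11.6 CPM untreated and 20.9, 9.53 and 15.1 in doxycycline.

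**Figure D3:**
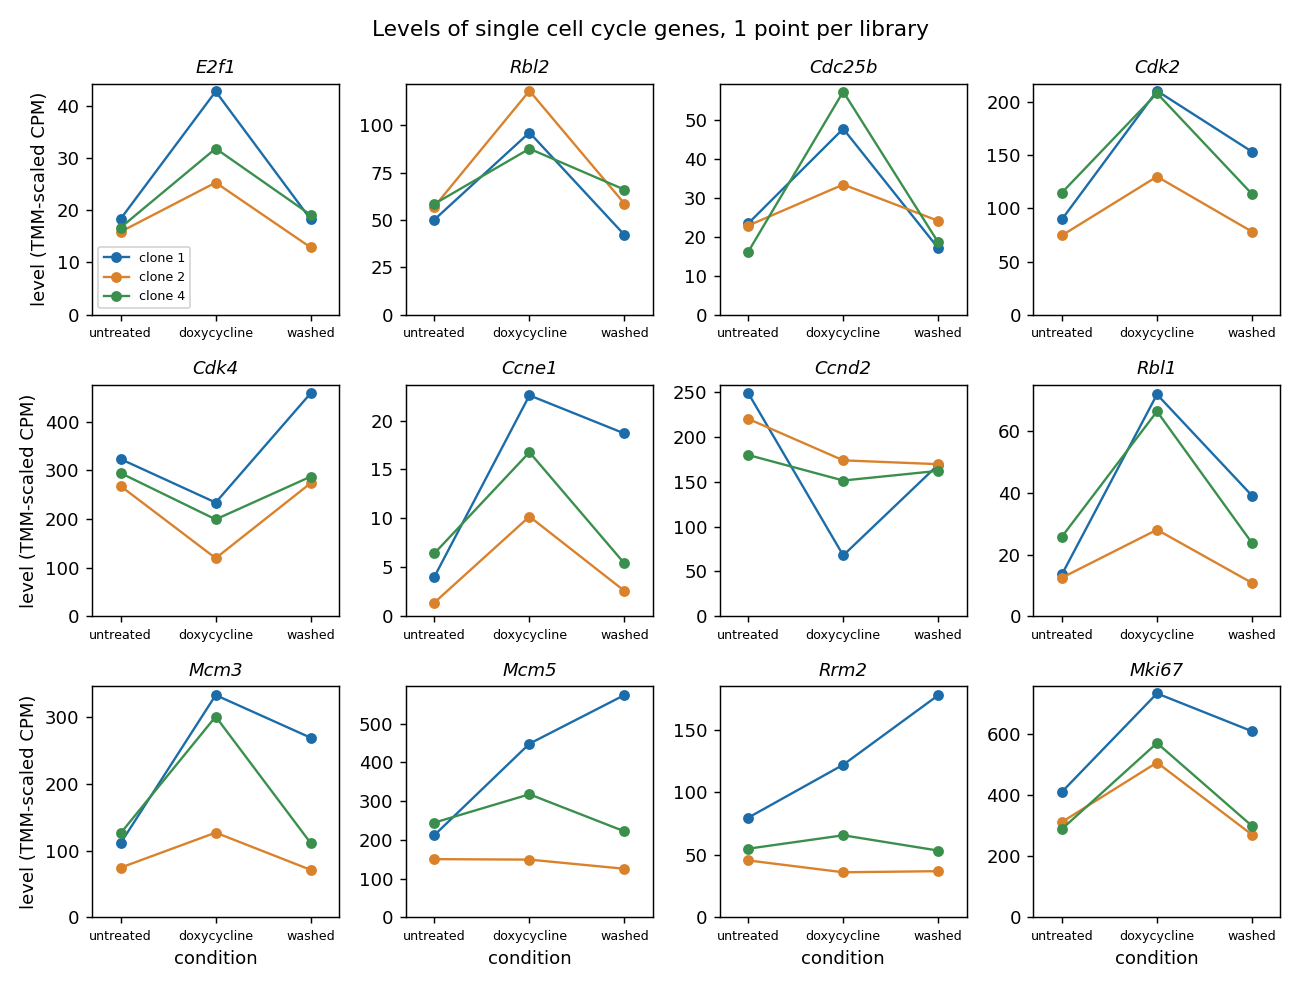
CPM of 12 of the genes (panels) in untreated, doxycycline and washed cells, with 1 point per library and a line for each clone; the axes start at 0. E2f1, Rbl2 and Cdc25b peak in doxycycline in all 3 clones, Cdk4 is lowest there, and Mcm5 and Rrm2 go on to 573 and 178 CPM in washed clone 1.

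The replication genes stood differently in doxycycline from clone to clone. Of the 14 genes of licensing, the fork and nucleotide supply, 0 were called higher or lower without the block. With it 1, Mcm3, was called higher (13.0% of all genes). Their median log2 ratio of doxycycline to untreated was 0.80 in clone 1, -0.07 in clone 2 and 0.36 in clone 4. The helicase genes Mcm2 to Mcm7 together went from 1083 to 2013 CPM in clone 1, from 806 to 727 in clone 2 and from 1259 to 1725 in clone 4. After washout the sum was 2318 in clone 1, 719 in clone 2 and 1204 in clone 4. Clones 2 and 4 therefore stood near their untreated level again, and clone 1 stood above its doxycycline level.

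Mcm3 was the helicase subunit that differed most in doxycycline. It stood at 112, 74.7 and 126 CPM untreated, 333, 127 and 301 in doxycycline, and 269, 71.3 and 111 after washout, and the lowest doxycycline value lay just above the highest untreated one. The log2 fold change was 1.29 (SE 0.51, adjusted p = 0.14 by edgeR, 0.020 with the block). Mcm2 was at 140, 92.3 and 190 CPM untreated and 250, 95.0 and 250 in doxycycline, and Mcm5 at 212, 150 and 245 and then 448, 149 and 318. Mcm4 was at 82.9, 56.0 and 101 CPM untreated and 160, 51.2 and 125 in doxycycline, and Mcm7 at 128, 107 and 151 and then 211, 79.8 and 166. Mcm6, the most abundant of the 6, was at 408, 326 and 446 CPM untreated and 610, 225 and 567 in doxycycline. In those 5 genes the groups overlapped, and clone 2 was level or lower. The adjusted p by edgeR ran from 0.53 for Mcm5 to 0.75 for Mcm7.

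Subunits of one ring are used in equal numbers, but their messages did not keep one ratio. Per length, Mcm3 made up 10.7%, 9.60% and 10.5% of the Mcm2 to Mcm7 sum in untreated clones 1, 2 and 4, 17.4%, 18.3% and 18.3% in doxycycline, and 12.4%, 10.2% and 9.69% after washout. The doxycycline libraries did not overlap the others and lay closer together than the CPM of Mcm3 itself. Mcm6 made up 39.1%, 41.7% and 36.9% of it untreated, 31.7%, 32.2% and 34.3% in doxycycline, and 27.5%, 42.6% and 39.0% after washout, so that washed clone 1 had the lowest share. These shares were chosen after the values were seen and carry no test, and their sum includes Mcm7, whose exons overlap those of Cops6.

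Of the loading and fork genes, some were higher in doxycycline in all 3 clones, as Mcm3 was, and some were not. Mcm10, which helps to start the fork, was at 31.4, 23.5 and 32.7 CPM untreated, 41.0, 14.3 and 25.3 in doxycycline, and 76.2, 17.9 and 36.8 after washout. Cdc6, the licensing ATPase, was at 47.7, 24.3 and 49.5 CPM untreated, 55.1, 15.6 and 42.3 in doxycycline, and 81.5, 23.0 and 51.0 after washout. Both were lower in doxycycline in clones 2 and 4 and higher in clone 1. Pcna, the sliding clamp, was at 65.7, 52.3 and 76.8 CPM untreated and 133, 66.7 and 107 in doxycycline (adjusted p = 0.26 by edgeR). Cdt1, the licensing factor, was at 70.6, 61.6 and 78.8 CPM untreated and 96.5, 64.8 and 85.5 in doxycycline. Pcna and Cdt1 were thus higher in each clone. Gmnn, the inhibitor of Cdt1, was at 36.9, 30.4 and 33.5 CPM untreated and 62.9, 25.7 and 46.1 in doxycycline, lower in clone 2 alone.

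Genes of nucleotide supply also had wide gaps between clones. Rrm1, the large subunit of ribonucleotide reductase, stood at 177, 119 and 161 CPM untreated, 402, 125 and 254 in doxycycline, and 436, 111 and 159 after washout. Rrm2, the small subunit, stood at 79.8, 45.6 and 55.0 CPM untreated, 122, 36.1 and 65.7 in doxycycline, and 178, 37.0 and 53.5 after washout. Washed clone 1 had the highest level of both. Tyms, which makes thymidylate, was at 27.9, 21.2 and 37.3 CPM untreated, 75.5, 27.7 and 51.2 in doxycycline, and 90.7, 23.2 and 35.5 after washout. None of the 3 passed the test in doxycycline against untreated (adjusted p by edgeR 0.393, 0.775 and 0.336).

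Of the 16 G2/M genes, 1 rose in doxycycline, a share near the 6.57% of all genes. Cdc25b (Entrez gene 12531, chromosome 2, 131186436 to 131198511), a phosphatase that activates CDK1 at mitotic entry, stood at 23.5, 22.9 and 16.2 CPM untreated, 47.8, 33.5 and 57.4 in doxycycline, and 17.1, 24.1 and 18.6 after washout. All 3 doxycycline libraries lay above the other 6. The rise was 1.15 in log2 (SE 0.26, adjusted p = 0.024 by edgeR) and the fall after washout 1.21 (SE 0.26, adjusted p = 0.022). Mki67, the proliferation antigen, stood at 411, 312 and 289 CPM untreated, 733, 507 and 571 in doxycycline, and 609, 271 and 299 after washout. It was higher in doxycycline in each clone and without overlap (log2 0.84, SE 0.32, adjusted p = 0.13 by edgeR, 0.016 with the block).

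The mitotic cyclins and their kinase did not pass the test. Ccna2 was at 97.4, 81.0 and 90.8 CPM untreated, 108, 46.7 and 91.3 in doxycycline, and 142, 68.5 and 69.5 after washout. Ccnb1 was at 28.6, 25.3 and 16.7 CPM untreated, 38.6, 19.1 and 35.7 in doxycycline, and 49.0, 22.5 and 21.5 after washout. Ccnb2 was at 85.3, 66.2 and 48.7 CPM untreated, 122, 66.4 and 92.1 in doxycycline, and 96.9, 75.5 and 50.4 after washout. Cdk1 was at 149, 111 and 104 CPM untreated, 210, 84.4 and 150 in doxycycline, and 215, 100 and 91.8 after washout. Clones 1 and 4 were higher in doxycycline for Ccnb1, Ccnb2 and Cdk1, while clone 2 was lower for Ccna2, Ccnb1 and Cdk1. The adjusted p for doxycycline against untreated by edgeR ran from 0.35 for Ccnb2 to 0.86 for Ccna2.

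Chromosome and spindle genes went both ways in clone 2. Top2a, the topoisomerase that untangles chromosomes, was at 407, 350 and 367 CPM untreated, 810, 357 and 582 in doxycycline, and 745, 303 and 341 after washout (adjusted p = 0.33 by edgeR). Plk1, a mitotic kinase, was at 52.8, 35.5 and 42.4 CPM untreated and 80.4, 38.8 and 75.5 in doxycycline. Both were higher in all 3 clones, by little in clone 2. Aurka, a spindle pole kinase, went from 34.4 to 23.2 CPM in clone 2 and from 27.2 to 38.9 in clone 4. Aurkb, the kinase of the chromosomal passenger complex, went from 66.1 to 47.6 CPM in clone 2 and from 61.0 to 84.2 in clone 4, and Bub1, of the spindle checkpoint, from 44.0 to 33.6 and from 35.8 to 40.7. The remaining Cdc25c, Foxm1, Cdc20, Bub1b and Birc5 had log2 fold changes from 0.03 for Cdc20 to 0.52 for Birc5, and 0 of these 5 passed the test. The median log2 ratio of the 16 in doxycycline was 0.50 in clone 1, -0.23 in clone 2 and 0.59 in clone 4.

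Counted by fold, 27 of the 48 genes were above 1.5-fold in doxycycline in clone 1 (20.0% of all genes), 9 in clone 2 (20.3%) and 18 in clone 4 (17.6%). The plot of gene-wise ratios within each clone shows the clouds of clones 1 and 4 above 0 and that of clone 2 around it.

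**Figure D4:**
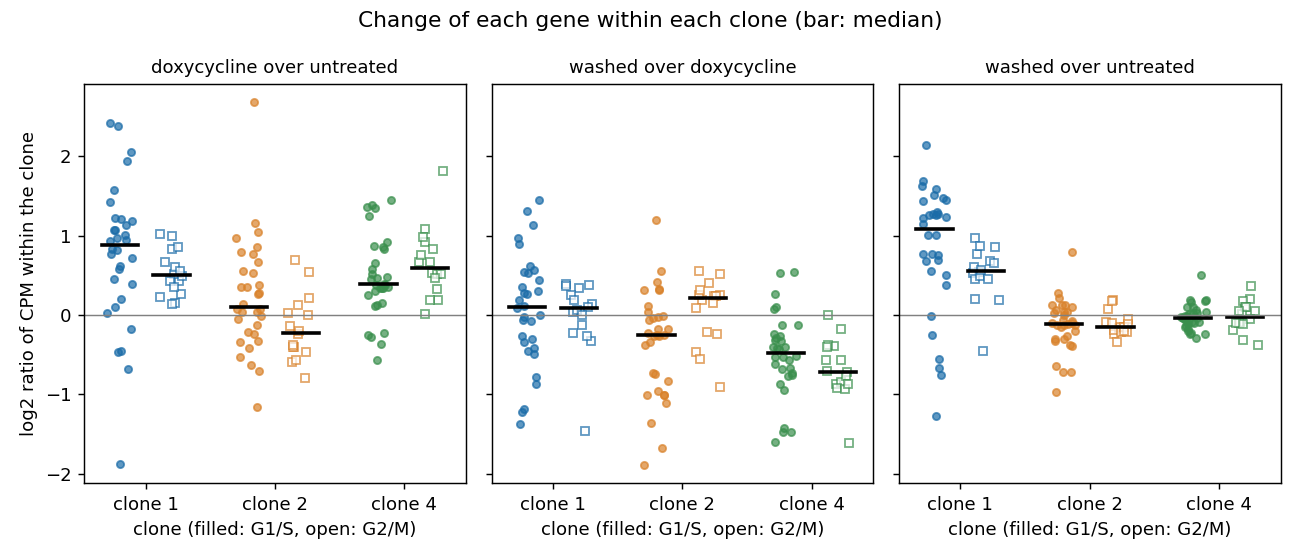
Log2 ratio of CPM within each clone for each gene, for doxycycline over untreated, washed over doxycycline and washed over untreated; filled circles are the 32 G1/S genes, open squares the 16 G2/M genes and bars medians. In washed over untreated the clone 1 medians are 1.08 and 0.56, while those of clones 2 and 4 lie between -0.15 and -0.02.

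The other genes of the pathway were looked up in lists that share no gene with the 48. Their counts are to be read against the 6.57% of all genes that rose and the 4.35% that fell, or 13.0% and 11.7% with the block, and were near or below those shares except for the 3 of 20 regulators and the 1 of 7 inhibitors that fell with the block. Of 46 further replication genes, 1 fell in doxycycline and 0 rose. This was Orc5, a subunit of the origin recognition complex, at 64.9, 53.5 and 51.5 CPM untreated, 28.8, 21.2 and 31.5 in doxycycline, and 51.5, 47.7 and 52.4 after washout (log2 -1.06, SE 0.19, adjusted p = 0.011 by edgeR). It was also the 1 gene of the list that rose after washout (log2 0.89, SE 0.19, adjusted p = 0.022). With the block, Tk1, the salvage thymidine kinase, rose in doxycycline as well, from 13.4, 11.7 and 12.0 CPM to 52.7, 17.5 and 31.0 (adjusted p = 0.070 by edgeR, 0.013 with the block). Of 51 further mitosis genes, 0 rose and 0 fell; with the block Prc1, Ncaph and Dlgap5 rose and Ncapg fell. Of 20 further regulators, 0 passed; with the block Lin52 rose and E2f5, Tfdp2 and Mnat1 fell. Of 7 CDK inhibitor genes, 0 passed, and Cdkn1c fell with the block (adjusted p = 0.12 by edgeR, 0.022 with the block). The medians of the log2 fold change were 0.24, 0.40, 0.02 and -0.17 for the 4 lists.

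Against doxycycline, washed cells had lower E2f1, Rbl2 and Cdc25b, the same 3 genes with the values above, and 0 of the 48 rose. Among all genes 6.02% fell and 3.64% rose. With the block 6 fell, namely Cdk2, E2f1, Rbl1, Rbl2, Cdc25b and Mki67 (12.4% of all genes), and Cdk4 rose (10.4%). At an unadjusted p under 0.05 there were 6 of the 48, against 26.0% of all genes. By sign, 16 were lower in all 3 clones (27.5%) and 4 higher (28.1%). In 3 the washed libraries all lay below the doxycycline ones (14.5%), and in 1, Cdk4, all above (11.8%). The comparison shares its doxycycline libraries with the one above, so the return is not a separate observation of those libraries.

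The calls in washed against doxycycline also changed with single libraries. Without clone 1, 1 gene was called lower (Mki67; 5.31% of all genes), without clone 2 it was 0 (0.450%), and without clone 4 it was 0 (0.0250%). Without untreated clone 1 it was 1 (Cdc25b; 3.98%), and without washed clone 1 it was 6 (8.46%), namely E2f1, E2f8, Rbl2, Mcm3, Cdc25b and Mki67.

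Of the 32 G1/S genes, 13 were lower after washout than in doxycycline in all 3 clones (27.5% of all genes). In E2f1, Rbl2 and Rb1 the log2 ratio was lowest in clone 1, at -1.22, -1.19 and -1.37, and it was also lowest there in Ccnd3 and E2f2. The rest of the 13 had their smallest fall in clone 1, namely Ccne1, Ccne2, Cdk2, E2f8, Rbl1, Mcm3, Pcna and Cdt1. The median log2 ratio of washed to doxycycline cells for the G1/S genes was 0.10 in clone 1, -0.25 in clone 2 and -0.47 in clone 4. For the G2/M genes it was 0.08, 0.21 and -0.72. Left without washed clone 1, the fitted median for the G1/S genes went from -0.13 to -0.68.

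Washed against untreated cells, both GFPhigh, differed in 0 of the 48 genes and in 0 of the 12004 (0%) by edgeR, also with clone as a block (0%) and by DESeq2. At an unadjusted p under 0.05 there were 38 genes (0.317%), and 0 of the 48. The fitted fold change was above 0 for 42 of the 48, with a median of 0.29, and for 6448 of the 12004. The sign followed clone 1: 41 of the 48 were higher after washout in clone 1, 14 in clone 2 and 20 in clone 4. Among the 12004 these counts were 6047, 6071 and 5951. In the fit without washed clone 1, 40 of the 48 changed sign.

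In clone 1, 30 of the 48 genes were above 1.5-fold in washed over untreated cells (18.5% of all genes), against 1 in clone 2 (4.77%) and 0 in clone 4 (4.10%). The median log2 ratio for the 14 replication genes was 1.21 in clone 1, -0.12 in clone 2 and -0.05 in clone 4. Examples are Mcm5, at 212 CPM untreated and 573 washed in clone 1, and Ccne1, at 4.04 and 18.7. The genes that were higher in doxycycline in all 3 clones were of both kinds. In clone 1, washed over untreated was 3.20-fold for Ccne2, 2.88-fold for Rbl1, 2.42-fold for Mcm3 and 1.71-fold for Cdk2. The 3 genes called without the block were not higher there: E2f1 was at 18.3 CPM untreated and 18.2 washed, Rbl2 at 50.3 and 42.2, and Cdc25b at 23.5 and 17.1. Each clone has 1 library per condition, so these ratios have no replicate check. The calls are also not independent of these levels. The fit without the block shares its spread over all libraries, so a gene far from its group in washed clone 1 is less readily called. Without washed clone 1 that fit called 9 genes higher in doxycycline, with Cdk2, Rbl1 and Mcm3 among them.

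Other measures of clone 1 moved with it. Its mitochondrial share was 12.7% untreated, 2.66% in doxycycline and 3.28% washed. The glycolysis and hypoxia genes summed to 10958, 2279 and 2710 CPM, with 12 of 12 lower in washed than in untreated cells. Among all 12004 genes, 6047 were higher in washed than in untreated cells of clone 1. In clone 4 the mitochondrial share was 20.4%, 7.52% and 22.0%, and in clone 2 16.8%, 18.6% and 15.8%. The 3 libraries with the highest median level of the 48 genes were thus the 3 with the lowest mitochondrial share. Their part in the cell cycle values was not tested.

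**Figure D5:**
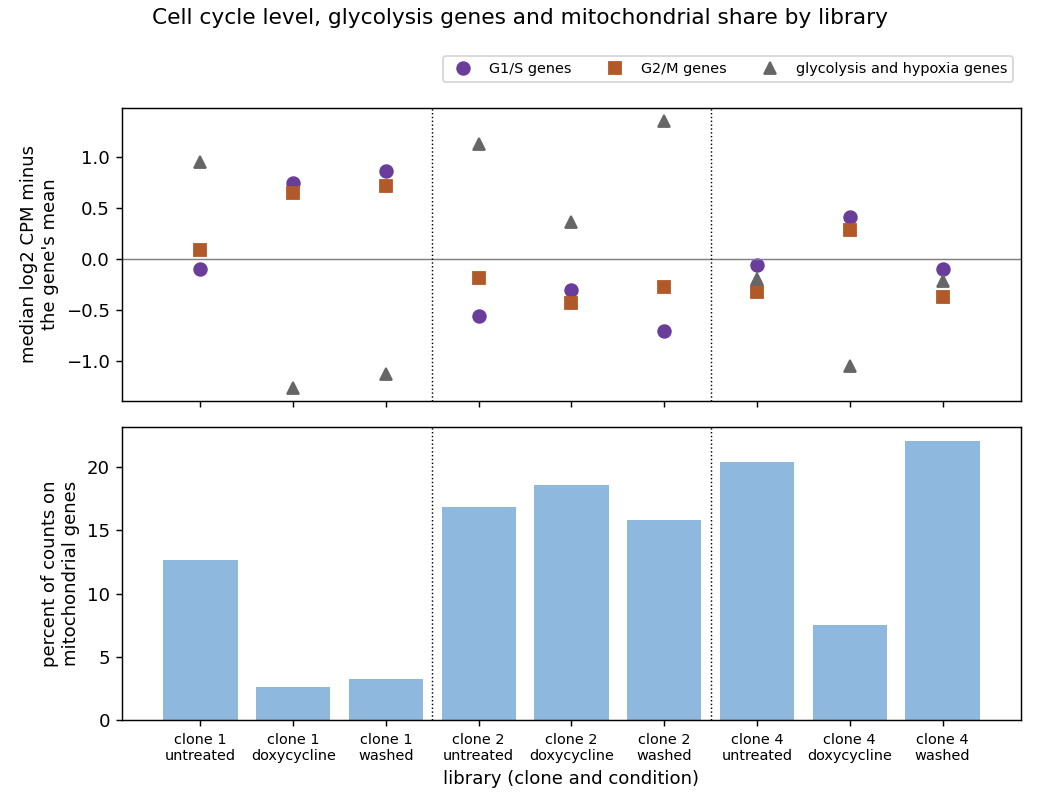
Top, the median over genes of log2 CPM minus the gene's mean, for the 32 G1/S genes (circles), the 16 G2/M genes (squares) and 12 glycolysis and hypoxia genes (triangles) in each library; bottom, the percent of counts on mitochondrial genes, with bars from 0. Doxycycline clone 1, washed clone 1 and doxycycline clone 4 have the highest cell cycle medians and mitochondrial shares of 2.66%, 3.28% and 7.52%, against 12.7% to 22.0% in the other 6.

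Between clones, clone 2 held the lowest place for most replication genes. It was the lowest of the 3 clones in each of the 3 groups for 23 of the 32 G1/S genes, among them 13 of the 14 replication genes, and for 3 of the 16 G2/M genes (19.2% of all genes). Clone 1 was the highest in each group for 14 of the 16 G2/M genes and 6 of the 32 G1/S genes (13.3%). The test of clone with the group taken into account called 0 of the 48 and 0 of the 12004 genes (0%), with a smallest adjusted p of 0.0505 by edgeR, which Cdc6 shared. At an unadjusted p under 0.05 there were 35 of the 48, all 14 replication genes included, against 37.5% of all genes. The adjusted p by edgeR for Rrm2 was 0.0518, for Cdc25a 0.0533, for Bub1 0.0589 and for Aurkb 0.0591. Without untreated clone 1 the test called 37 of the 48 (29.9% of all genes), and without washed clone 1 14 (14.6%).

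Whether the clones differ in their response to doxycycline was tested as an interaction, with the untreated and washed libraries of a clone taken as its GFPhigh pair. It called 0 of the 48 and 0 of all genes (0%), and every adjusted p was 1 by edgeR. With 3 residual degrees of freedom, the smallest unadjusted p among the 48 were 0.021 for Ccnd2, 0.025 for Ccnb2, 0.040 for Cdc25b and 0.041 for Cdk6. Those are 4 of 48, against 3.39% of all genes. Over all entries, the GFPhigh pair of clone 1 differed far more (chi-square over degrees of freedom 357) than those of clones 2 (5.60) and 4 (3.47). Part of that value comes from the entry 100861531, with 22.0% of counts in untreated and 0.228% in washed clone 1. Among the 48, 30 were above 1.5-fold in washed over untreated cells of clone 1, against 1 in clone 2 and 0 in clone 4. Taken as replicates, the clone 1 pair widens the spread, so the test cannot decide whether the responses of the clones differ. The different medians of clones 1, 2 and 4 in doxycycline are values of single libraries.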

How the data were processed

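Whole-number counts per Entrez gene were deposited for each of 9 libraries, per the file headers. The submitters' processing notes name the mm10 build, featureCounts for counting, CASAVA 1.8.2, and limma 3.22.0 with edgeR 3.8.2. Not given in the sources used here: aligner, annotation version, strand setting and handling of multiply matching reads. RefSeq (GRCm38) gave symbols to 25275 of 27179 entries. edgeR 4.0.16 (R 4.3.3) tested 12004 genes kept by filterByExpr, after TMM scaling, with glmQLFit, 1 mean per group and Benjamini-Hochberg adjustment. log2 CPM used a prior count of 2, and levels per length used the deposited gene lengths. Clones were tested in models with group and clone. A block on clone was an alternative: deviations of libraries of 1 clone correlated at 0.290 to 0.680 in all 9 pairs (other clones -0.692 to 0.323), and the same clone is the same line. No library was counted as a duplicate, since the closest pair differed beyond counting noise (chi-square over degrees of freedom 3.47). DESeq2 1.42.0, other scalings and filters, and fits leaving out libraries were alternatives; those with the block and libraries left out, and the clone test without clone 1 libraries, were added after seeing the data. The steps were tested on simulated counts. Named are called genes, whole families, and per phase the 3 genes of smallest p per test or highest CPM; from other lists, called genes or those of smallest p. Members and lists were chosen with earlier results of these data known.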

Additional observations from a re-analysis of the deposited data

How the results depend on the processing

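In the counts below, the first pair is genes called higher and lower in doxycycline against untreated (789 and 522 in the fit as reported, with 3 and 0 of the 48 cell cycle genes), and the second is the same for washed against doxycycline (437 and 723, with 0 and 3). With library size alone, 796 and 257, and 242 and 406 were called, with 1 cell cycle gene lower in the second. That scaling moved the median of all genes to 0.23 in log2 in doxycycline against untreated and 0.22 in washed against untreated, and the share of higher calls from 60.2% to 75.6%. With DESeq2, 1164 and 974, and 894 and 1073 were called, with 6 cell cycle genes higher in the first and 1 higher in the second. With clone as a replicate block, 1566 and 1410, and 1252 and 1492 were called, with 10 higher and 1 lower, and 1 higher and 6 lower of the 48. With the 2 groups alone, 1181 and 887, and 91 and 223 were called, with 9 higher and 0 lower of the 48 in the first and 0 in the second. Leaving out a clone, or a library of clone 1, gave 0 to 1240 higher and 0 to 980 lower with 0 to 9 of the 48 higher, and 1 to 802 higher and 3 to 1016 lower with 0 to 6 lower; the lowest counts of all genes came without clone 4 and the highest without washed clone 1. With the replicate block, the fits without clones 1, 2 and 4 called 2108, 392 and 220 higher and 1946, 238 and 141 lower, with 13, 1 and 0 of the 48 higher and 1, 0 and 0 lower. In washed against doxycycline they called 2035, 144 and 121 higher and 2212, 273 and 203 lower, with 1, 0 and 0 of the 48 higher and 17, 1 and 0 lower. With the block and without untreated clone 1, 1260 and 1071, and 1647 and 1816 were called, with 9 and 1, and 3 and 12 of the 48. With the block and without washed clone 1, 2412 and 2224, and 1768 and 1961 were called, with 18 and 1, and 1 and 11 of the 48. With the replicate block and without clone 1, the sign of Cdk6 (-0.61), Mcm2 (-0.41) and Mcm5 (-0.39) in washed against doxycycline reversed, and they passed the test with adjusted p of 0.041, 0.041 and 0.049 by edgeR. The clone test called 0 genes and 0 of the 48 as reported and with the stricter filter, 74 and 1 with RLE factors, 1140 and 14 with library size alone, 1664 and 23 without a filter, 105 and 1 with mitochondrial genes and unnamed entries removed, 3584 and 37 without untreated clone 1, and 1757 and 14 without washed clone 1. The cause of these moves was not tested. Washed against untreated and the response of clones had 0 calls under every alternative run. Counts of 11 to 52 for untreated Ccne1 limit its fold change more than those of the other genes.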
